A study of Homo sapiens with 30 samples.

Results

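HCT116, a human colon carcinoma line, was compared with SiHa, a human squamous carcinoma line of the uterine cervix, with both lines kept at pH 7.4. The comparison held 8 of the 30 libraries of the study: HCT116 replicates 1, 3, 5, 6 and 7 against SiHa replicates 1, 4 and 5. The members were taken from the library labels, and every gene of the table entered the comparison. SiHa replicates 6 and 7 were left out because VIM, which encodes the mesenchymal intermediate filament protein vimentin, stood above 1000 in them, a limit chosen after the data had been seen. VIM is therefore described here without a test. The study measured RNA in 3 cancer lines at pH 7.4 and pH 6.5, with 5 libraries in each of 6 groups. All cells grew in DMEM-type medium with 10% serum, 10 mM glucose, 2 mM glutamine, antibiotics and the buffers HEPES and PIPES at 25 mM each, at 37 °C in 5% CO2. Cells of the groups at pH 6.5 had been adapted for at least 1 month. Both lines are established tumour cultures that differ in organ, donor and mutations at once, so none of these can be told apart here as the source of a difference. Whether the replicates of a line were grown as separate cultures is not stated, and p-values therefore measure the spread between these libraries.

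HCT116 is known for a stabilising mutation of beta-catenin and for defective DNA mismatch repair. SiHa carries an integrated human papillomavirus, whose E7 protein inactivates RB, the brake on cell cycle entry. Colon epithelium is a simple, single-layered epithelium built under the homeobox factor CDX2, with brush border proteins at its surface. Cervical squamous epithelium is stratified and rests on basal keratins, the factor p63 and desmosomes. These facts are background and were not measured here.

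The 8 libraries held 30.1 to 44.0 M reads, and 27506 to 29182 genes were detected in each. Values below are read counts normalised by the authors for library size and are not corrected for gene length, so levels are compared between lines and never between genes. Within a line, values are listed in the order of the replicate numbers. Where no read was found, up to 3 may have been missed by counting error alone, which is 2.61 to 3.69 normalised counts depending on the library. On all 10 libraries of the lines at pH 7.4, the first principal component took 90.4% of the variance and separated HCT116 from SiHa, and the second took 2.73% and spread the SiHa libraries. Of 15 colon epithelium markers, 11 were tested, of which 7 were higher in HCT116 and 3 in SiHa, while CDX1 and ASCL2 were at or under 3 reads in every HCT116 library. Of 15 markers of cervical squamous epithelium, 12 were tested, of which 8 were higher in SiHa and 2 in HCT116, while KRT13, IVL and SPRR1B were at or under 3 reads in every SiHa library. The summed squamous markers ranged from 4333 to 5265 in HCT116 and from 104108 to 113004 in SiHa. Most of the SiHa sum came from KRT17, TRIM29 and CDKN2A, whose values are given below. TP63, KRT5 and KRT14, on the same list, were low in SiHa. The summed colon markers overlapped, from 130427 to 203847 in HCT116 and from 143034 to 178785 in SiHa. KRT8, a simple epithelial keratin on the colon list, was at 114696, 142598, 93447, 93589 and 75484 in HCT116 and 167303, 132913 and 165916 in SiHa, and was called higher in SiHa, with a log2 difference of -0.61 ± 0.18 (adjusted p = 0.011), although its libraries overlapped between the lines. The KRT8 call was lost without SiHa replicate 1 (-0.55), without SiHa replicate 5 (-0.55), with SiHa replicate 1 alone (-0.72) and in the fit over both pH values (-0.61). In such bulk RNA, fewer cells of a type and less RNA per cell cannot be told apart.

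Of 20178 genes tested, 7526 (37.3%) were higher in HCT116 and 7288 (36.1%) were higher in SiHa at a limma adjusted p under 0.05. At least a 2-fold difference was called for 4516 genes (22.4%) toward HCT116 and 4441 (22.0%) toward SiHa. The libraries of the lines did not overlap in 13857 genes (68.7%). The median log2 difference over all genes tested was 0.01. A gene was tested where its mean was at least 10 in the higher line, so a list member low in both lines was not tested and one without reads in a line entered through the other. Counts and medians of the gene groups below cover tested members only, describe the lists beside these shares and are no test of them. They follow in part from this filter. Differences are HCT116 minus SiHa on the log2 scale of the normalised count plus 1, with the standard error (n = 5 and n = 3). A line without any read for a gene was set to 3 reads over its summed depth, which gives a lower bound for the fold. Where it held 1 to 3 reads in all, the ratio of means is given with its 95% counting interval. A gene is said to be called where it passed the test.

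The 15 genes with the widest differences toward SiHa are given first. They were ranked among genes with a symbol whose libraries did not overlap between the lines, so genes known only by an ID are left out. In SiHa, BASP1, a membrane-bound protein of nerve endings that also acts as a nuclear corepressor, was at 76430.4, 80942 and 82577. HCT116 libraries held 1.06, 0.871, 0, 1.23 and 0, so BASP1 was 126602-fold higher in SiHa, with a 95% counting interval of 43534 to 616923 (adjusted p = 1.29e-11). SPINK6, an inhibitor of kallikrein proteases in skin, was at 20016, 21603 and 23074 in SiHa and 0 in each HCT116 library, and was at least 34301-fold higher in SiHa (adjusted p = 9.85e-13). Every library of SiHa was far above every library of HCT116 for both genes. WNT5A, a Wnt ligand that signals mostly without beta-catenin, was at 33758, 35282 and 30341 in SiHa and 3.18, 0, 0, 2.46 and 1.15 in HCT116, a log2 difference of -14.02 ± 0.46 (adjusted p = 4.89e-10). NNMT, which methylates nicotinamide, was at 14047, 13882 and 14352 in SiHa and 0 in each HCT116 library, and was at least 22418-fold higher in SiHa. KRT17, a keratin of basal and activated squamous cells, was at 52675, 55215 and 60346 in SiHa and 6.36, 4.36, 5.03, 3.68 and 2.29 in HCT116, a log2 difference of -13.40 ± 0.23. Reads of KRT17 may be shared with its near-identical pseudogenes, of which 4 (KRT17P1, KRT17P2, KRT17P3 and KRT17P6, named after their values were seen) were also on in SiHa and at the floor in HCT116.

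EFEMP1, an extracellular matrix glycoprotein, was at 0.246 ± 0.549 in HCT116 and 11447 ± 1005 in SiHa and was 46596-fold higher in SiHa, with a 95% counting interval of 9804 to 2157570.4. The neurofilament genes NEFH, at 2.73 ± 2.83 in HCT116 and 18572 ± 2362 in SiHa, and INA, at 0.413 ± 0.566 in HCT116 and 4403 ± 65.7 in SiHa, showed a log2 difference of -12.61 ± 0.53 for NEFH, while INA was 10655-fold higher in SiHa, with a 95% counting interval of 2908 to 86745. SMOC1, a secreted calcium-binding protein, showed a log2 difference of -12.79 ± 0.35, and the insulin-like growth factor binding protein gene IGFBP4 a log2 difference of -12.12 ± 0.44. The matrix protease gene ADAMTS1 was at least 6841-fold higher in SiHa. NNT encodes the mitochondrial enzyme that makes NADPH from NADH and was at 5228, 6957 and 5868 in SiHa and 1.06, 0.871, 0, 0 and 2.29 in HCT116, a log2 difference of -11.81 ± 0.38 (adjusted p = 4.53e-10). IFI16, a nuclear DNA sensor, showed a log2 difference of -11.62 ± 0.48. HDGFL3 was 20448-fold higher in SiHa, with a 95% counting interval of 3052 to 671646, and PCSK1N, an inhibitor of prohormone convertase, was 7839-fold higher in SiHa, with a 95% counting interval of 2231 to 31609.7.

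On the HCT116 side, WNT16, another Wnt ligand, was at 7609, 7825, 8039, 8582 and 7991 in HCT116 and 0 in each SiHa library, and was at least 7807-fold higher in HCT116 (adjusted p = 8.89e-14). The 5 HCT116 libraries lay within a narrow range, and no SiHa library held a read. BMP4, a bone morphogenetic protein, was at 9619, 13426, 8607, 7252 and 7004 in HCT116 and 0, 0.947 and 1.13 in SiHa, and was 13273-fold higher in HCT116, with a 95% counting interval of 3716 to 110849 (adjusted p = 2.89e-11). In the SiHa libraries left out, replicates 6 and 7, BMP4 stood at 102 and 215. NTSR1, the receptor of the gut peptide neurotensin, was at 10528 ± 1182 in HCT116 and 1.58 ± 2.73 in SiHa, a log2 difference of 12.52 ± 0.47. HS3ST1, which sulphates heparan chains, was at least 6372-fold higher in HCT116. GTSF1, a germ cell factor of transposon silencing, was at least 4388-fold higher in HCT116. MSX2, a homeobox factor downstream of BMP signals, was at least 3775-fold higher in HCT116.

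VCAN, a large matrix proteoglycan, was at 3966, 4393, 4454, 4343 and 4191 in HCT116 and 0, 0 and 1.13 in SiHa, and was 11355-fold higher in HCT116, with a 95% counting interval of 2241 to 493121. AP1M2, an epithelial subunit of a clathrin adaptor, was 12027-fold higher in HCT116, with a 95% counting interval of 2143 to 471534. ALDH7A1, an aldehyde dehydrogenase of lysine breakdown, was at least 3941-fold higher in HCT116 (adjusted p = 5.74e-13). NLRP2, a protein of the inflammasome family, was at least 2834-fold higher in HCT116. HBE1, the embryonic beta-like globin, was at 3559, 2787, 2349, 2237 and 3113 in HCT116 and 0 in each SiHa library, and was at least 2738-fold higher in HCT116. ONECUT3, a transcription factor of endoderm, was 9260.2-fold higher in HCT116, with a 95% counting interval of 1827 to 402149. STK11, the tumour suppressor kinase that activates AMPK, was at 4331, 3457, 3689, 3447 and 3146 in HCT116 and 0, 0 and 1.13 in SiHa, and was 9612-fold higher in HCT116, with a 95% counting interval of 1897 to 417419 (adjusted p = 2.58e-11). The 2 SiHa libraries left out held 29.3 and 45.1 for STK11, above the other 3 and far under every HCT116 library.

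**Figure D1:**
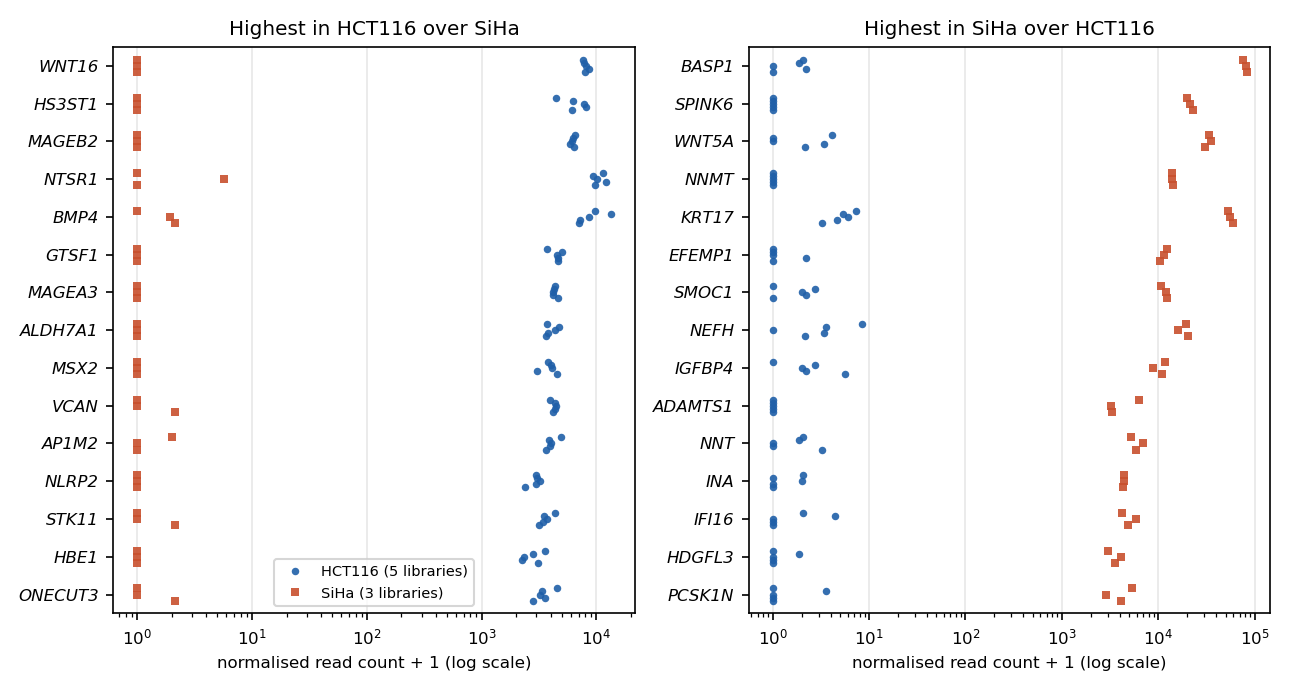
Normalised read count plus 1 on a log scale for the 15 genes with the widest difference in each direction. These were chosen among genes with a symbol, a mean of at least 100 and no overlap between the lines. Circles are the 5 HCT116 libraries and squares the 3 SiHa libraries at pH 7.4. For each of the 30 genes the lower line lies at or close to 0 and every library of the higher line lies at 2237 (HBE1) or above.

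The stretch of DNA just before a gene's start is shown for 4 genes that were at or near 0 in one line and high in the other, to show how their upstream sequence differs in CpG pairs, the sites that DNA methylation acts on. Each line gives 250 bases upstream of the RefSeq start on GRCh38.p14, 5′ to 3′ along the gene, with CpG pairs in capitals. CDX2 (chr13:27969316-27969565, minus strand) and STK11 (chr19:1205528-1205777, plus strand) were on in HCT116, and BASP1 (chr5:17216573-17216822, plus strand) and CBR1 (chr21:36069774-36070023, plus strand) in SiHa.
CDX2: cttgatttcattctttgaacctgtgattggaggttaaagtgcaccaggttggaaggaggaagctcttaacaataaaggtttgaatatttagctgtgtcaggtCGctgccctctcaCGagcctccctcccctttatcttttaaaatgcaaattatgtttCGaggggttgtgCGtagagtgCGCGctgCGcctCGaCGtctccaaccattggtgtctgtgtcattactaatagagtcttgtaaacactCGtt
STK11: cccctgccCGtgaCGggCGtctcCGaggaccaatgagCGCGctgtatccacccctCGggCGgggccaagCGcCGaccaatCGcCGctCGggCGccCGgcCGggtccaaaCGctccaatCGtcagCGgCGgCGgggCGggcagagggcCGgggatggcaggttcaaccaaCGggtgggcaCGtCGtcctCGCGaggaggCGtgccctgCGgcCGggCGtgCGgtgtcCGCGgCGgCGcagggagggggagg
BASP1: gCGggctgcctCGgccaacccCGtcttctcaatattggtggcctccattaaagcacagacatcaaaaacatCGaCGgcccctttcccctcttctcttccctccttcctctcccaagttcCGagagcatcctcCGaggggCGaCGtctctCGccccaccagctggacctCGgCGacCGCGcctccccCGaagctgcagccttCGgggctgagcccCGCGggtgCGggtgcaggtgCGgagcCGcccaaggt
CBR1: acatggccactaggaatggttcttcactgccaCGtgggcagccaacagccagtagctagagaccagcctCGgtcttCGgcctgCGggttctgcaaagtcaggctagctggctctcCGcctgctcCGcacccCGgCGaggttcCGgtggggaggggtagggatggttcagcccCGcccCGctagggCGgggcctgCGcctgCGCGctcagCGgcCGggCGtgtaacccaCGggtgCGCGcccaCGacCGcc
The CpG pairs number 10 for CDX2, 37 for STK11, 21 for BASP1 and 23 for CBR1, and the share of G and C is 45.2%, 76.0%, 65.6% and 69.6%. A comparison of motifs and CpG pairs over gene sets was void: RefSeq promoters were matched for 72.3% of protein-coding genes at least 4-fold higher in HCT116 and 77.3% of those at least 4-fold higher in SiHa, under the 80% needed.

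Genes that were on in one line and at the floor in the other were counted with every library of the higher line at 100 or more and every library of the other at 3 reads or fewer. HCT116 had 211 such genes, of which 168 were protein-coding and 88 had no read in any of the 3 SiHa libraries. SiHa had 224, of which 172 were protein-coding and 74 had no read in any of the 5 HCT116 libraries. With all 5 SiHa libraries, 192 of the 211 and 203 of the 224 met the same limits. In the separate libraries at pH 6.5, 2 of HCT116 and 5 of SiHa, 152 of the 211 and 142 of the 224 met them.

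Among intestinal lineage factors, 9 of 18 tested members (23 in the table) were higher in HCT116 and 5 in SiHa, with a median log2 difference of 0.46. CDX2, the homeobox factor of intestine, was at 918, 729, 827, 700.1 and 769.9 in HCT116 and 0 in each SiHa library, and was at least 769-fold higher in HCT116 (adjusted p = 1.00e-11). No read of CDX2 was found in any SiHa library. HNF4A, a nuclear receptor of gut and liver, was at 713, 661, 574, 589.6 and 566 in HCT116 and 10.2, 16.1 and 7.90 in SiHa, a log2 difference of 5.70 ± 0.21 (adjusted p = 1.12e-09), and FOXA3, a pioneer factor of endoderm, was 439.9-fold higher in HCT116, with a 95% counting interval of 112 to 3353. ELF3, an epithelial ETS factor, showed a log2 difference of 5.12 ± 0.15. GATA5, a factor of heart and gut endoderm, went the other way and was 255-fold higher in SiHa, with a 95% counting interval of 85.5 to 1211.

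For enterocyte, goblet and brush border genes, 15 of 20 tested members (37 in the table) were higher in HCT116 and 4 in SiHa, with a median log2 difference of 2.74. Members without a SiHa read, such as DPP4 and USH1C, entered through HCT116 alone, so this count and median follow in part from the filter. The protease DPP4 of the enterocyte surface was at 888, 672, 2874, 3139.6 and 3339.9 in HCT116 and 0 in each SiHa library, and was at least 2127-fold higher in HCT116. HCT116 replicates 1 and 3 were lower for DPP4 than replicates 5, 6 and 7. USH1C, a scaffold between microvilli, was at 1336, 874, 864, 843 and 964 in HCT116 and 0 in each SiHa library, and was at least 951-fold higher in HCT116. The membrane mucin gene MUC12 showed a log2 difference of 7.79 ± 0.44, while TSPAN8, with a log2 difference of -6.15 ± 0.51, was higher in SiHa. EPCAM, the adhesion molecule of simple epithelia, was at 14259, 13460.3, 12829, 13365 and 13947 in HCT116 and 484, 445 and 549 in SiHa, a log2 difference of 4.79 ± 0.09 (adjusted p = 8.76e-12).

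Keratins divided between the lines: 7 of 22 tested members (26 in the table) were higher in HCT116 and 10 in SiHa, with a median log2 difference of -0.26. The simple or gut-type keratin genes KRT19, at 36064 ± 4638 in HCT116 and 1960.1 ± 140.2 in SiHa, and KRT23, at 1305 ± 292 in HCT116 and 0.376 ± 0.651 in SiHa, were higher in HCT116, with a log2 difference of 4.19 ± 0.11 for KRT19 and KRT23 3471-fold higher in HCT116, with a 95% counting interval of 685 to 150749. KRT20, a keratin of mature colon surface cells, was 808-fold higher in HCT116, with a 95% counting interval of 144 to 31692. KRT16, a keratin of activated squamous epithelium, was at 7095, 5079 and 8524 in SiHa and 52.96, 58.4, 67.5, 98.3 and 64.2 in HCT116, a log2 difference of -6.64 ± 0.21 (adjusted p = 4.53e-10). KRT13, which marks suprabasal cells of squamous mucosa, was in HCT116, at 328, 894, 577, 286 and 194, and had no read in SiHa at pH 7.4. KRT5 and KRT14, the pair of basal keratins, were low in both lines, at 22.8 ± 12.1 in HCT116 and 76.5 ± 10.7 in SiHa for KRT5 and 44.5 ± 21.9 in HCT116 and 179 ± 34.9 in SiHa for KRT14. KRT18 was at 9463 ± 2773 in HCT116 and 8848 ± 1009.9 in SiHa, with a 95% interval of -0.40 to 0.51 for the log2 difference (adjusted p = 0.825).

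Genes of squamous lineage and cornification were called toward both lines: 19 of 33 tested members (48 in the table) were higher in HCT116 and 7 in SiHa, with a median log2 difference of 0.58. GRHL2, a grainyhead factor that holds epithelial state, was at 1133, 1419, 1498, 1632 and 1613 in HCT116 and 1.02, 0 and 0 in SiHa, and was 4298-fold higher in HCT116, with a 95% counting interval of 766 to 168528 (adjusted p = 6.28e-11). The desmosomal cadherin genes DSC2 and DSC3 showed log2 differences of 10.40 ± 0.34 and 7.54 ± 0.49, and OVOL1, a factor of epidermal differentiation, was 706-fold higher in HCT116, with a 95% counting interval of 237 to 3361. On the SiHa side, TRIM29, a ubiquitin ligase of basal squamous cells, was at 40625, 31772 and 34528 in SiHa and 387, 526.3, 424, 482 and 272 in HCT116, a log2 difference of -6.44 ± 0.19 (adjusted p = 2.05e-10), and the desmosomal plaque gene PKP1 showed a log2 difference of -8.16 ± 0.39. TP63, the gene of p63, was low in SiHa, at 43.8, 53.04 and 58.7, and lower still in HCT116, at 7.41, 6.97, 4.03, 1.23 and 5.73. Among kallikreins, clade B serpins and other protease inhibitors, 11 of 24 tested members (32 in the table) were higher in HCT116 and 10 in SiHa, with a median log2 difference of -0.09. KLK6 and KLK7, skin-type kallikreins that cut desmosomal proteins, were at 574 ± 120.2 in HCT116 and 1.47 ± 1.74 in SiHa for KLK6 and at 964 ± 93.6 in HCT116 and 1.13 ± 1.95 in SiHa for KLK7. The kallikrein inhibitor SPINK5 was higher in SiHa, with a log2 difference of -8.63 ± 0.47, as was the elastase inhibitor PI3, with a log2 difference of -7.15 ± 0.51.

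HOX genes, which set position along the body axis, were mostly higher in SiHa: 6 of 35 tested members (39 in the table) were higher in HCT116 and 20 in SiHa, with a median log2 difference of -0.83. The 5′ genes of the HOXD cluster led. HOXD10 was at 1274, 1491 and 1334 in SiHa and 0, 2.61, 3.02, 0 and 4.58 in HCT116, a log2 difference of -9.15 ± 0.56 (adjusted p = 6.97e-08). HOXD9, with a log2 difference of -8.77 ± 0.43, HOXD11, with a log2 difference of -7.38 ± 0.37, and HOXD13, with a log2 difference of -8.09 ± 0.48, likewise did not overlap between the lines. Other patterning factors were split, since 19 of 47 tested members (59 in the table) were higher in HCT116 and 20 in SiHa, with a median log2 difference of 0.09. IRX4 was 1619-fold higher in HCT116, with a 95% counting interval of 469 to 13985, and its relative IRX2 was 2681-fold higher in SiHa, with a 95% counting interval of 400.2 to 88072. The mesenchymal T-box gene TBX18 was at least 369-fold higher in HCT116, and the forkhead gene FOXF2 was at least 315-fold higher in SiHa.

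More beta-catenin targets were called toward HCT116 than toward SiHa. CTNNB1, the gene of beta-catenin, was at 13446, 14345, 14372, 13727 and 15015 in HCT116 and 11894, 14263 and 12982 in SiHa, and the 95% interval of its log2 difference was -0.06 to 0.30 (adjusted p = 0.193). Of its target and feedback genes, 18 of 26 tested members (35 in the table) were higher in HCT116 and 5 in SiHa, with a median log2 difference of 2.197. CCND1, the cyclin of cell cycle entry and a known target, was at 17249, 15977, 17544, 15759 and 14771 in HCT116 and 339, 316 and 149 in SiHa, a log2 difference of 6.004 ± 0.22 (adjusted p = 1.17e-09). NKD2, a feedback inhibitor of Wnt signals, showed a log2 difference of 6.25 ± 0.31, and the receptor gene TNFRSF19 a log2 difference of 5.89 ± 0.49. LGR6 and APCDD1 went the other way: LGR6 showed a log2 difference of -5.70 ± 0.50, and APCDD1 was 264-fold higher in SiHa, with a 95% counting interval of 47.9 to 10534.

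Wnt ligands, receptors and pathway components as a group were divided: 19 of 47 tested members (53 in the table) were higher in HCT116 and 16 in SiHa, with a median log2 difference of 0.12. Beside WNT16, the ligand gene WNT3A was higher in HCT116, with a log2 difference of 6.33 ± 0.23. Beside WNT5A, SiHa held the secreted Wnt inhibitors SFRP1, at 0.174 ± 0.39 in HCT116 and 3039 ± 123 in SiHa, and DKK3, with a log2 difference of -7.36 ± 0.41. SFRP1 was 17436-fold higher in SiHa, with a 95% counting interval of 2602 to 572702. TLE4, a corepressor of TCF factors, was at 245, 215 and 224 in SiHa and 0 in each HCT116 library, and was at least 363-fold higher in SiHa. For the TGF-beta and BMP pathway, 23 of 49 tested members (52 in the table) were higher in HCT116 and 16 in SiHa, with a median log2 difference of 0.26. ID2, a target of BMP signals, was at 8441, 3693, 3759, 3842 and 7092 in HCT116 and 57.03, 31.3 and 32.7 in SiHa, a log2 difference of 6.98 ± 0.31 (adjusted p = 4.59e-09). NOG, the secreted BMP antagonist, was at 4525, 2161 and 3184 in SiHa and 31.8, 21.8, 29.2, 28.3 and 19.5 in HCT116, a log2 difference of -6.88 ± 0.25 (adjusted p = 9.14e-10). SMAD4, the shared transducer, showed a log2 difference of 0.66 ± 0.09 (adjusted p = 5.33e-05), and TGFBR2, the receptor often mutated in mismatch repair deficiency, a log2 difference of -0.35 ± 0.11 (adjusted p = 0.0147). TGFBR2 missed the threshold without SiHa replicate 4, at -0.28 (adjusted p = 0.0718), with SiHa replicate 1 alone, at -0.29 (adjusted p = 0.19), with the replicate block, at -0.18 (adjusted p = 0.266), and in the fit over both pH values, at -0.35 (adjusted p = 0.1).

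The stress-linked genes CCNG1 and GDF15 were higher in HCT116, and the antiviral gene TRIM22 was higher in SiHa. CCNG1, an atypical cyclin induced by stress, was at 4775, 5998, 5379, 6052 and 6281 in HCT116 and 13.2, 2.84 and 6.77 in SiHa, a log2 difference of 9.56 ± 0.32 (adjusted p = 5.70e-10). GDF15, a stress hormone linked to loss of appetite, was at 7695, 6329, 6582, 7559 and 4777 in HCT116 and 51.9, 20.8 and 28.2 in SiHa, a log2 difference of 7.65 ± 0.25 (adjusted p = 5.03e-10). TRIM22, an antiviral ubiquitin ligase, was higher in SiHa, with a log2 difference of -3.37 ± 0.42.

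RB1 showed a log2 difference of -0.58 ± 0.13 (adjusted p = 0.00149), and the call was lost with SiHa replicate 1 alone, at -0.32 (adjusted p = 0.128). CDKN2A, which encodes an inhibitor of the kinases that inactivate RB, was at 15916, 14272 and 15267 in SiHa and 2223, 2307, 2009.7, 2175 and 2060.1 in HCT116, a log2 difference of -2.81 ± 0.08 (adjusted p = 1.60e-10). The gene of a related inhibitor, CDKN2C, showed a log2 difference of -3.89 ± 0.14, and CDKN2B a log2 difference of -2.55 ± 0.16. TP73, a transcription factor gene induced by E2F factors, was higher in HCT116, with a log2 difference of 6.21 ± 0.23. Over genes of RB, E2F and cell cycle entry, 16 of 61 tested members (62 in the table) were higher in HCT116 and 20 in SiHa, with a median log2 difference of -0.17. Of mitosis genes, 21 of 66 tested members (66 in the table) were higher in HCT116 and 7 in SiHa, with a median log2 difference of 0.21.

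MSH3, a mismatch repair gene that acts on loops in DNA, was at 85.8, 106, 129, 112 and 115 in HCT116 and 691, 735 and 801 in SiHa, a log2 difference of -2.76 ± 0.15. Every SiHa library was above every HCT116 library for MSH3. MGMT, which removes alkyl groups from guanine, showed a log2 difference of -1.57 ± 0.13, and the end-joining genes XRCC4 and LIG4 showed log2 differences of 1.85 ± 0.20 and 1.79 ± 0.17. Over DNA mismatch and other repair genes, 14 of 58 tested members (58 in the table) were higher in HCT116 and 19 in SiHa, with a median log2 difference of -0.07. PIK3CA showed a log2 difference of 0.42 ± 0.13 (adjusted p = 0.014). PIK3CA missed the threshold without SiHa replicate 1, at 0.28 (adjusted p = 0.0764), and with all 5 SiHa libraries, at 0.27 (adjusted p = 0.0696).

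**Figure D2:**
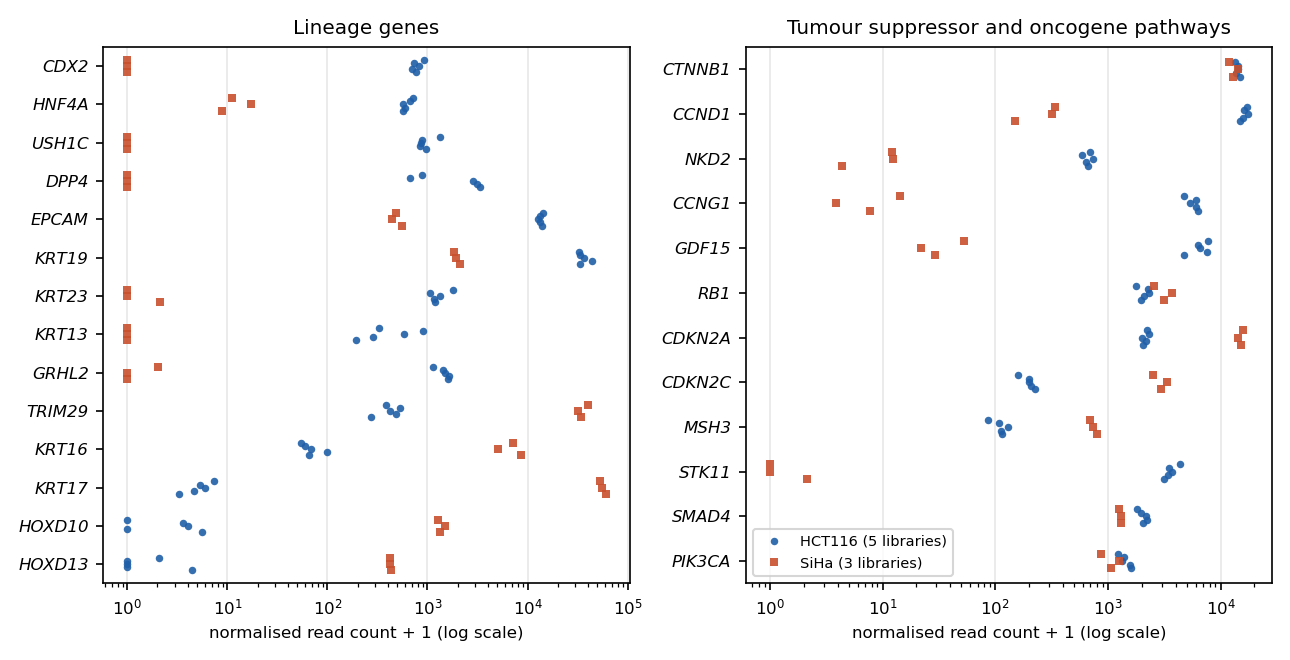
Normalised read count plus 1 on a log scale for lineage genes (left) and genes of tumour suppressor and oncogene pathways (right); circles are the 5 HCT116 libraries, squares the 3 SiHa libraries at pH 7.4. CTNNB1 overlaps between the lines, while CCND1, CCNG1, GDF15, MSH3 and STK11 lie apart in every library.

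For receptor tyrosine kinases and their ligands, 25 of 47 tested members (54 in the table) were higher in HCT116 and 15 in SiHa, with a median log2 difference of 0.92. FGF19, a gut hormone of the fibroblast growth factor family, was at 1184, 1332, 676, 585 and 587 in HCT116 and 0 in each SiHa library, and was at least 851-fold higher in HCT116. IGF2 was at 926, 779, 822, 924 and 862 in HCT116 and 12.2, 8.52 and 2.26 in SiHa, a log2 difference of 6.86 ± 0.36 (adjusted p = 1.91e-08). SiHa instead held HGF, the ligand of MET, at 204, 280.4 and 320.4, and IGF1, at 363, 199.9 and 274. HGF was at least 427-fold higher in SiHa, and VEGFC, a growth factor of lymphatic vessels, was 3573-fold higher in SiHa, with a 95% counting interval of 701 to 154335. KITLG, the ligand of KIT, was at 58406 ± 7483 in HCT116 and 2420.3 ± 153 in SiHa, a log2 difference of 4.58 ± 0.11. Of Eph receptors and ephrins, 12 of 18 tested members (22 in the table) were higher in HCT116 and 5 in SiHa, with a median log2 difference of 1.02, with EPHA1 with a log2 difference of 4.93 ± 0.16 and EFNA5 with a log2 difference of -4.88 ± 0.31.

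In the Notch and Hedgehog pathway, 28 of 42 tested members (44 in the table) were higher in HCT116 and 11 in SiHa, with a median log2 difference of 1.01. HEYL, a transcriptional repressor induced by Notch, was at 682, 511, 514, 429 and 433 in HCT116 and 0 in each SiHa library, and was at least 501-fold higher in HCT116. DTX3 and the ligand DLL3 were higher in SiHa, with log2 differences of -8.76 ± 0.50 and -5.47 ± 0.40. SMO, the Hedgehog signal transducer, was at 928, 888, 924, 817 and 804 in HCT116 and 2.04, 0 and 11.3 in SiHa, a log2 difference of 8.03 ± 0.59 (adjusted p = 2.98e-07), and the libraries left out of SiHa held 259 and 287. GLI3, a Hedgehog transcription factor, and GAS1, a Hedgehog co-receptor, showed log2 differences of -7.78 ± 0.45 and -8.69 ± 0.52.

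Junction genes were called mostly toward HCT116 and genes of cadherins and mesenchymal state mostly toward SiHa. Of claudin and tight junction genes, 22 of 30 tested members (36 in the table) were higher in HCT116 and 5 in SiHa, with a median log2 difference of 0.90. CLDN3, CLDN4 and CLDN7, claudins of simple epithelia, were higher in HCT116, and CLDN1, a claudin of stratified epithelia, in SiHa. CLDN4 was at 20467, 10371, 11682, 14972 and 12123 in HCT116 and 92.7, 60.6 and 47.4 in SiHa, a log2 difference of 7.69 ± 0.24 (adjusted p = 3.40e-10), and CLDN1 was at 2279, 895 and 1148 in SiHa and 10.6, 9.58, 5.03, 1.23 and 6.87 in HCT116, a log2 difference of -7.64 ± 0.51 (adjusted p = 1.35e-07). CLDN3 showed a log2 difference of 8.82 ± 0.31 and CLDN7 a log2 difference of 6.63 ± 0.11.

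For cadherins and epithelial-mesenchymal regulators, 15 of 42 tested members (49 in the table) were higher in HCT116 and 24 in SiHa, with a median log2 difference of -1.10. CDH13, a cadherin anchored by lipid, was at 9908, 7409 and 7903 in SiHa and 3.18, 0.871, 0, 6.14 and 2.29 in HCT116, a log2 difference of -11.52 ± 0.52 (adjusted p = 5.38e-09). TNC, the matrix protein tenascin C, was at 7399, 5247 and 5502 in SiHa and 8.47, 6.97, 7.05, 4.91 and 3.44 in HCT116, a log2 difference of -9.75 ± 0.26. TWIST2, a factor of mesenchymal state, was at least 785-fold higher in SiHa, and the fibrillar collagen gene COL5A1 showed a log2 difference of -10.23 ± 0.42. VIM itself was at 10.6, 7.84, 2.01, 1.23 and 4.58 in HCT116 and 2.04, 28.4 and 165 in SiHa, and at 2817 and 2863 in the libraries left out. Of other mesenchymal genes, COL1A2 was at 3.06, 10.4 and 42.9 in the 3 libraries used and 938 and 1377 in the 2 left out, and SPARC, a matrix glycoprotein, at 3.06, 1.89 and 24.8 and 401 and 674. In HCT116 SPARC was at 101, 64.5, 10.1, 14.7 and 21.8, a log2 difference of 2.18 ± 0.84 (adjusted p = 0.0348), and with all 5 SiHa libraries the difference was -0.33 (adjusted p = 0.841). It also missed the threshold without HCT116 replicate 1 (1.75) or 3 (1.91) and without SiHa replicate 1 (1.82) or 4 (1.58). Of 11 mesenchymal markers, 9 were tested, 2 were higher in HCT116 and 7 in SiHa. Their sum ranged from 1068 to 2928 in HCT116, from 3103 to 4316 in the SiHa libraries used and from 6050 to 7430 in those left out. COL1A2, DCN, LUM, PDGFRA and POSTN were at or under 3 reads in every HCT116 library. The part of mesenchymal cells in the differences was not tested.

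For integrins, collagens and laminins, 17 of 48 tested members (54 in the table) were higher in HCT116 and 26 in SiHa, with a median log2 difference of -0.81. ITGB4, which anchors epithelial cells to the basement membrane, was at 17252, 19386, 20505, 23319 and 16079.5 in HCT116 and 543, 449 and 567 in SiHa, a log2 difference of 5.21 ± 0.13 (adjusted p = 5.88e-11). COL7A1, the collagen of anchoring fibrils, was at 17022, 7686 and 6988 in SiHa and 645, 309, 295, 399 and 559 in HCT116, a log2 difference of -4.53 ± 0.32 (adjusted p = 2.41e-07). In matrix proteases and plasminogen activation, 19 of 40 tested members (48 in the table) were higher in HCT116 and 17 in SiHa, with a median log2 difference of 0.04. PLAT and PLAU, the plasminogen activators, showed log2 differences of 8.50 ± 0.28 and 5.89 ± 0.24, and the gelatinase gene MMP2 a log2 difference of -7.48 ± 0.37. Of adhesion and guidance genes of neural type, 31 of 50 tested members (63 in the table) were higher in HCT116 and 13 in SiHa, with a median log2 difference of 0.73. ROBO1, a receptor for SLIT proteins, was at 3036, 3693 and 2975 in SiHa and 0, 0, 1.01, 0 and 0 in HCT116, and was 16063-fold higher in SiHa, with a 95% counting interval of 2770.3 to 609650.1. SLIT2, one of its ligands, was at 346, 393, 219, 185 and 236 in HCT116 and 0, 1.89 and 13.5 in SiHa, a log2 difference of 6.26 ± 0.67, and stood at 233 and 471 in the SiHa libraries left out. PCDH7 and SEMA6B showed log2 differences of 5.05 ± 0.12 and 7.66 ± 0.22.

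**Figure D3:**
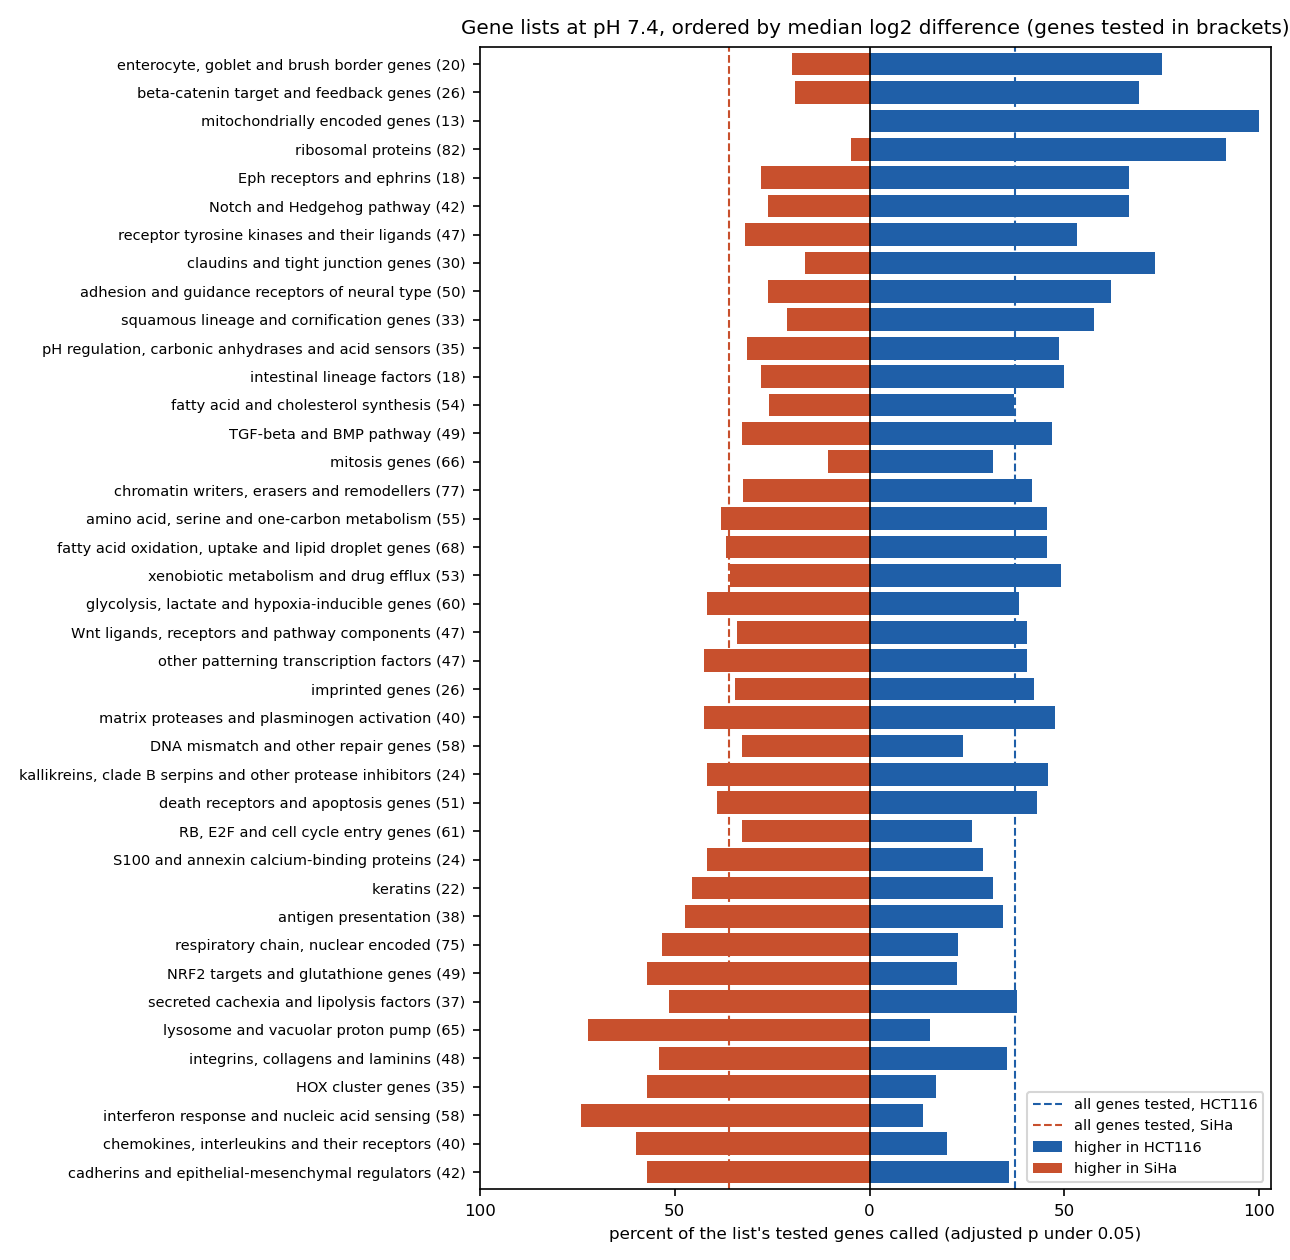
Percent of each list's tested genes called higher in HCT116 (right) or in SiHa (left) at pH 7.4, ordered by the list's median log2 difference, with the number of genes tested in brackets; dashed lines are the shares over all 20178 genes, 37.3% and 36.1%. Mitochondrially encoded genes and ribosomal proteins extend farthest toward HCT116, and interferon and lysosome genes farthest toward SiHa.

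Interferon response and nucleic acid sensing genes were among the lists with the most calls toward SiHa: 8 of 58 tested members (61 in the table) were higher in HCT116 and 43 in SiHa, with a median log2 difference of -1.04. BST2, which tethers budding viruses to the cell, was at 11398, 9933 and 11211 in SiHa and 8.47, 15.7, 8.05, 4.91 and 10.3 in HCT116, a log2 difference of -10.09 ± 0.28 (adjusted p = 1.33e-10). IFI44L, an interferon-induced gene, was at 591, 399 and 644 in SiHa and 0 in each HCT116 library, and was at least 866-fold higher in SiHa. CGAS, the sensor that makes cyclic GMP-AMP from cytosolic DNA, was at 891, 941 and 937 in SiHa and 6.36, 0, 0, 2.46 and 1.15 in HCT116, a log2 difference of -8.70 ± 0.58 (adjusted p = 1.45e-07). GBP1, a guanylate-binding protein, showed a log2 difference of -8.51 ± 0.52, SAMD9L a log2 difference of -7.87 ± 0.66 and XAF1 a log2 difference of -6.48 ± 0.55. For these 6 genes no HCT116 library at pH 7.4 was above 15.7 (BST2), and no SiHa library was under 272 (XAF1).

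At pH 6.5, in other libraries, 34 of 59 were higher in HCT116 and 11 in SiHa among the same list. BST2 was at 10629 and 10312 in the 2 HCT116 libraries and 14271, 12592, 12847, 13253 and 9876 in the 5 SiHa libraries of pH 6.5, a difference of -0.25 ± 0.14 (adjusted p = 0.148). IFI44L was at 609 and 307 in HCT116 and 873, 428, 854, 626 and 187 in SiHa, -0.26 ± 0.56 (adjusted p = 0.701). CGAS remained apart, at 2.29 and 4.56 and 989, 1357, 1074, 1181 and 1322, -8.10 ± 0.24 (adjusted p = 1.30e-08). The line difference of BST2 moved by 9.84 ± 0.34 between pH values (adjusted p = 1.60e-11) and that of IFI44L by 8.80 ± 0.60 (adjusted p = 4.37e-08), while for CGAS the move was 0.59 ± 0.73 (adjusted p = 0.586). In FaDu, the third line of the study, BST2 ranged from 243 to 2045 at pH 6.5, under both HCT116 libraries. TP63, at 5517 to 6018 in FaDu at pH 6.5, was at 2.29 and 3.42 in these HCT116 libraries. The part of FaDu or SiHa transcripts in the interferon genes of HCT116 at pH 6.5 was not tested.

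**Figure D4:**
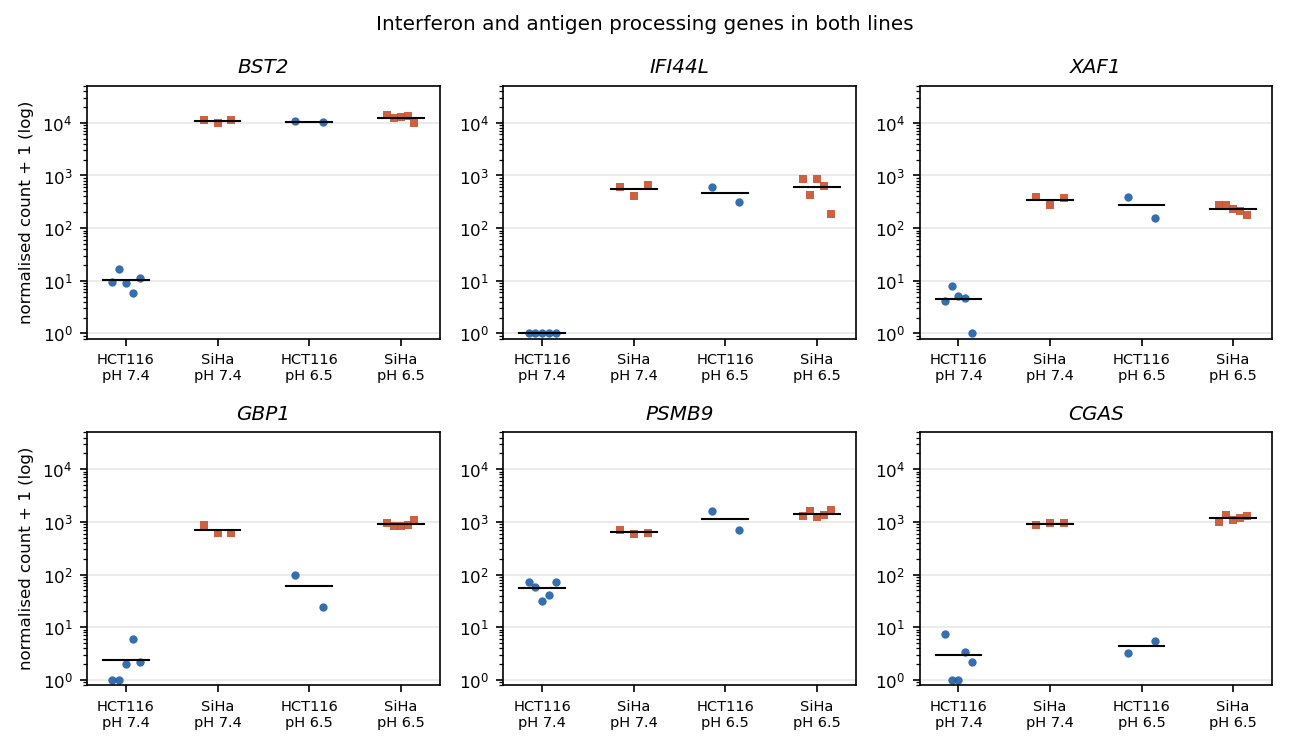
Normalised read count plus 1 on a log scale for 6 interferon and antigen processing genes in HCT116 (circles) and SiHa (squares) at pH 7.4 (5 and 3 libraries) and pH 6.5 (2 and 5 libraries); bars are means. BST2, IFI44L, XAF1 and PSMB9 overlap between the lines at pH 6.5. GBP1 stays apart there, at 96.1 and 22.8 in HCT116 and at 849 or above in SiHa, and CGAS is at 6.36 or lower in every HCT116 library.

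In antigen presentation, 13 of 38 tested members (39 in the table) were higher in HCT116 and 18 in SiHa, with a median log2 difference of -0.30. The immunoproteasome subunit genes PSMB8 and PSMB9 were higher in SiHa, with PSMB8 at 1536, 1246 and 1618 in SiHa and 3.18, 8.71, 12.1, 6.14 and 13.7 in HCT116, a log2 difference of -7.36 ± 0.37 (adjusted p = 1.35e-08). PSMB9 showed a log2 difference of -3.59 ± 0.27, and CIITA, the switch of class II genes, a log2 difference of -3.04 ± 0.22, while HLA-DPA1 and HLA-DOA were higher in HCT116. For chemokines, interleukins and their receptors, 8 of 40 tested members (52 in the table) were higher in HCT116 and 24 in SiHa, with a median log2 difference of -1.05. IL7R, the interleukin 7 receptor, was at 2562, 1423 and 1145 in SiHa and 0, 0, 0, 0 and 1.15 in HCT116, and was 7462-fold higher in SiHa, with a 95% counting interval of 1465 to 322299. IL6 was at 534, 529 and 297 in SiHa and 1.06, 0, 1.01, 0 and 1.15 in HCT116, and was 706-fold higher in SiHa, with a 95% counting interval of 247 to 3496. The decoy chemokine receptor gene ACKR3 showed a log2 difference of -9.95 ± 0.45, CCL2 a log2 difference of -7.00 ± 0.41, and TNFSF10, the death ligand TRAIL, a log2 difference of -7.87 ± 0.66.

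Death receptor and apoptosis genes were called in both directions: 22 of 51 tested members (54 in the table) were higher in HCT116 and 20 in SiHa, with a median log2 difference of -0.12. CASP1, the inflammasome protease, was at 859, 828.8 and 945 in SiHa and 0, 0, 0, 1.23 and 0 in HCT116, and was 3572-fold higher in SiHa, with a 95% counting interval of 752 to 165399. PYCARD, the adaptor that recruits it, was at 109, 117 and 105 in SiHa and 4.24, 5.23, 5.03, 1.23 and 10.3 in HCT116, a log2 difference of -4.34 ± 0.43 (adjusted p = 3.83e-06). HRK, a pro-death BCL2 family member, was higher in HCT116, with a log2 difference of 3.07 ± 0.22. Of 9 immune cell markers, 6 were tested, of which 3 were higher in HCT116 and 2 in SiHa. PTPRC, which all leukocytes carry, was at 3 reads or fewer in every library of both lines. CD14, a monocyte marker on this list, was at 1307, 708 and 1368 in SiHa and 26.5, 11.3, 11.1, 9.83 and 8.02 in HCT116, a log2 difference of -6.36 ± 0.36. The summed immune markers ranged from 79.8 to 220.3 in HCT116 and from 741 to 1402 in SiHa, where most of the sum was CD14. Of 7 endothelial markers 3 were tested and all 3 were higher in HCT116, with sums of 54.9 to 136 against 9.17 to 18.0. Of 6 adipocyte markers 3 were tested, 2 higher in HCT116 and 1 in SiHa, and LEP and FABP4 were at 3 reads or fewer in every library. The part of such cells in the results was not tested.

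For xenobiotic metabolism and drug efflux, 26 of 53 tested members (65 in the table) were higher in HCT116 and 19 in SiHa, with a median log2 difference of 0.13, and for NRF2 targets and glutathione genes, 11 of 49 tested members (49 in the table) were higher in HCT116 and 28 in SiHa, with a median log2 difference of -0.45. AKR1B1, aldose reductase, was at 612766, 320285 and 436319 in SiHa and 12266, 4414, 5245, 2124 and 3028 in HCT116, a log2 difference of -6.62 ± 0.45 (adjusted p = 1.72e-07). CBR1, a carbonyl reductase, was at 3084, 3095 and 3312 in SiHa and 0, 0.871, 0, 0 and 0 in HCT116, and was 18153-fold higher in SiHa, with a 95% counting interval of 2709 to 596236. AKR1C1, AKR1C2 and AKR1C3 showed log2 differences of -6.31 ± 0.31, -6.27 ± 0.34 and -6.58 ± 0.30, though these genes are near-identical and their reads may be split between them. CYP1B1, a cytochrome P450 of steroids and carcinogens, was at 29995, 36663 and 38122 in SiHa and 149, 114, 144, 131 and 146 in HCT116, a log2 difference of -7.98 ± 0.12 (adjusted p = 2.91e-12). On the HCT116 side, the efflux pump ABCC2 was at 20387, 20519.8, 17127, 15353 and 18527 in HCT116 and 114, 96.6 and 105 in SiHa, a log2 difference of 7.43 ± 0.11 (adjusted p = 2.91e-12). GSTM3 was 6255-fold higher in SiHa, with a 95% counting interval of 1079 to 237408, and GSTM4 was 277-fold higher in HCT116, with a 95% counting interval of 95.4 to 1352, and reads of this glutathione transferase family may also be shared.

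Carbohydrate and lipid genes differed gene by gene. For glycolysis, lactate and hypoxia-inducible genes, 23 of 60 tested members (60 in the table) were higher in HCT116 and 25 in SiHa, with a median log2 difference of 0.12. PDK4, which holds back pyruvate oxidation, was at 161, 97.6, 151, 168 and 245 in HCT116 and 0 in each SiHa library, and was at least 160.5-fold higher in HCT116. The collagen hydroxylase gene PLOD2 and the hormone gene STC1 were higher in SiHa, with log2 differences of -3.23 ± 0.12 and -6.31 ± 0.41. Fatty acid oxidation, uptake and lipid droplet genes were divided, as 31 of 68 tested members (70 in the table) were higher in HCT116 and 25 in SiHa, with a median log2 difference of 0.14. PPARGC1A, a coactivator of mitochondrial genes, was at 476, 525.7 and 667 in SiHa and 2.12, 2.61, 0, 1.23 and 0 in HCT116, a log2 difference of -8.18 ± 0.46 (adjusted p = 3.25e-08). G0S2, an inhibitor of triglyceride lipase, was 1769-fold higher in SiHa, with a 95% counting interval of 608 to 8622, and the lipid droplet gene PLIN5 was 524-fold higher in HCT116, with a 95% counting interval of 103.5 to 22775. LIPE, hormone-sensitive lipase, showed a log2 difference of 2.00 ± 0.17.

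Among genes of fatty acid and cholesterol synthesis, 20 of 54 tested members (56 in the table) were higher in HCT116 and 14 in SiHa, with a median log2 difference of 0.27. The cholesterol carrier STARD4 was at 2815, 4449, 5458, 6659 and 4534 in HCT116 and 4.07, 8.52 and 1.13 in SiHa, a log2 difference of 9.94 ± 0.41 (adjusted p = 2.84e-09). ABCA1, which exports cholesterol, was at 3341, 3408 and 2358 in SiHa and 79.4, 28.8, 23.2, 12.3 and 21.8 in HCT116, a log2 difference of -6.74 ± 0.45 (adjusted p = 1.40e-07), and ELOVL4, which lengthens very long fatty acids, was 3369-fold higher in SiHa, with a 95% counting interval of 503 to 110661. Amino acid, serine and one-carbon genes were divided, as 25 of 55 tested members (61 in the table) were higher in HCT116 and 21 in SiHa, with a median log2 difference of 0.16. CBS, which makes cystathionine from homocysteine, was at 9189, 6954 and 8091 in SiHa and 27.5, 8.71, 9.06, 0 and 8.02 in HCT116, a log2 difference of -10.05 ± 0.80 (adjusted p = 6.05e-07). KYNU, of tryptophan breakdown, showed a log2 difference of -9.61 ± 0.52, while the amino acid carrier SLC38A5 and the salvage enzyme MTAP showed log2 differences of 7.53 ± 0.23 and 3.61 ± 0.11. Over pH regulation, carbonic anhydrases and acid sensors, 17 of 35 tested members (45 in the table) were higher in HCT116 and 11 in SiHa, with a median log2 difference of 0.49. CA2 showed a log2 difference of 2.96 ± 0.21, CA8 was 483-fold higher in HCT116, with a 95% counting interval of 80.1 to 17629, the sodium-proton exchanger gene SLC9A2 showed a log2 difference of 6.59 ± 0.56, and the water channel AQP5 a log2 difference of -5.98 ± 0.32.

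Of lysosome and vacuolar proton pump genes, 10 of 65 tested members (69 in the table) were higher in HCT116 and 47 in SiHa, with a median log2 difference of -0.66. CTSF, a cathepsin, was at 3537, 3065 and 3535 in SiHa and 1.06, 0, 0, 0 and 1.15 in HCT116, and was 7663-fold higher in SiHa, with a 95% counting interval of 2232 to 66574. SMPD1, acid sphingomyelinase, was at 2339, 1604 and 1695 in SiHa and 58.3, 51.4, 49.3, 76.2 and 50.4 in HCT116, a log2 difference of -5.01 ± 0.19 (adjusted p = 1.27e-09). HEXA, a hexosaminidase subunit, showed a log2 difference of -3.21 ± 0.13, and the pump subunit ATP6V0D1 a log2 difference of -2.76 ± 0.11. MCOLN2, a lysosomal ion channel, was higher in HCT116, with a log2 difference of 7.50 ± 0.28.

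The respiratory chain is encoded in 2 genomes, and most calls were toward HCT116 for the mitochondrial one and toward SiHa for the nuclear one. Of the mitochondrially encoded genes, 13 of 13 tested members (13 in the table) were higher in HCT116 and 0 in SiHa, with a median log2 difference of 1.505. MT-ND3 was at 93073, 62794, 59701, 53126 and 71731 in HCT116 and 10933, 9476 and 10306 in SiHa, a log2 difference of 2.71 ± 0.16 (adjusted p = 4.28e-08), and MT-CYB showed a log2 difference of 2.01 ± 0.10. Of nuclear-encoded respiratory chain genes, 17 of 75 tested members (76 in the table) were higher in HCT116 and 40 in SiHa, with a median log2 difference of -0.35. SDHA, a subunit of complex II, was at 15725, 17319 and 18505 in SiHa and 4871, 5188, 6274, 5430.4 and 4624 in HCT116, a log2 difference of -1.71 ± 0.11 (adjusted p = 7.38e-08), and NDUFS6 showed a log2 difference of -1.58 ± 0.08. UQCRB was higher in HCT116, with a log2 difference of 1.35 ± 0.12. The lists were not tested against each other.

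Of cytosolic ribosomal protein genes, 75 of 82 tested members (82 in the table) were higher in HCT116 and 4 in SiHa, with a median log2 difference of 1.14. RPS18 was at 64202, 67726, 61891, 73341 and 80492 in HCT116 and 13250.3, 14532 and 14562 in SiHa, a log2 difference of 2.30 ± 0.10 (adjusted p = 4.17e-09), and RPL10 showed a log2 difference of 2.35 ± 0.09. RPL22L1 and RPL39L, divergent copies of ribosomal protein genes, differed more widely. RPL22L1 was higher in HCT116, at 10733 ± 1207 in HCT116 and 396 ± 122 in SiHa, and RPL39L in SiHa, at 1.41 ± 1.17 in HCT116 and 433 ± 82.7 in SiHa, with log2 differences of 4.80 ± 0.17 and -7.62 ± 0.41. Ribosomal protein genes have many processed pseudogenes, and how their shared reads were counted is not given in the sources used here. How the sequenced RNA was selected, which also bears on mitochondrial transcripts, is not given in the sources used here beyond total RNA.

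Of chromatin writers, erasers and remodellers, 32 of 77 tested members (77 in the table) were higher in HCT116 and 25 in SiHa, with a median log2 difference of 0.19. HMGA2, a chromatin protein of embryonic and tumour cells, was at 8669, 7365, 8277, 10893 and 9372 in HCT116 and 14.3, 52.1 and 21.4 in SiHa, a log2 difference of 8.39 ± 0.31 (adjusted p = 1.32e-09), and 183 and 160.2 in the SiHa libraries left out. HMGA1 showed a log2 difference of 4.19 ± 0.10, and TET1, which oxidises methylcytosine, a log2 difference of 3.67 ± 0.35. Of 31 cancer-testis antigen genes in the table, 23 were under a mean of 10 in both lines and 8 were tested. MAGEB2, MAGEA3 and PRAME had no SiHa read and entered through HCT116 alone, so no count or median is given for the list. MAGEB2 was at least 6070.4-fold higher in HCT116, MAGEA3 was at least 4216-fold higher in HCT116, and PRAME was at least 1236-fold higher in HCT116. MAGEA2B, MAGEA3 and MAGEA6 have near-identical copies, so the split of reads between them is uncertain.

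Imprinted genes, S100 and annexin genes and secreted factors were each divided. Of imprinted genes, 11 of 26 tested members (30 in the table) were higher in HCT116 and 9 in SiHa, with a median log2 difference of 0.04; PPP1R9A and SGCE, neighbours on the same chromosome arm, were both higher in HCT116, at 765 ± 118 in HCT116 and 1.01 ± 0.953 in SiHa for PPP1R9A and a log2 difference of 7.20 ± 0.23 for SGCE. Among S100 and annexin genes, 7 of 24 tested members (30 in the table) were higher in HCT116 and 10 in SiHa, with a median log2 difference of -0.20. ANXA10, an annexin of stomach, was at 1614, 1629, 2534, 2627 and 3391 in HCT116 and 2.04, 2.84 and 1.13 in SiHa, a log2 difference of 9.60 ± 0.28 (adjusted p = 1.89e-10), and S100P showed a log2 difference of -6.44 ± 0.42. Of secreted factors linked to cachexia or lipolysis, 14 of 37 tested members (44 in the table) were higher in HCT116 and 19 in SiHa, with a median log2 difference of -0.50. IGFBP2 was higher in HCT116, with a log2 difference of 8.35 ± 0.45, and IGFBP7 in SiHa, with a log2 difference of -8.39 ± 0.32.

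The tested protein-coding genes were also ordered along the chromosomes. Over 13744 windows of 20 neighbouring genes, the median log2 difference of a window lay between -1.06 and 1.10 in 95% of windows. The windows described were chosen by these medians. A gene with no read in one line entered a window through the other line alone, so a median over such genes follows in part from the filter, and no count or median of a window is read as a result. The highest window ran from TOP2A to KRT13, with a median of 4.63 and 16 of 20 genes higher in HCT116, and covered hair-type and gut keratin genes and keratin-associated proteins. Of its genes, 11 had no SiHa read, and its median was 3.44 over the members with a mean of at least 50 and 2.54 with a pseudocount of 5. The next ran from RHOG to TRIM6, with a median of 3.73 and 14 of 20 genes higher in HCT116. Here too 11 genes had no SiHa read, and the median was 2.02 with the higher minimum and 1.81 with the higher pseudocount. It held HBE1 and the fetal globin genes HBG1 and HBG2, together with 8 olfactory receptor genes, from OR51B4 to OR52D1, and TRIM68. OR51B4 was at 519 ± 97.3 in HCT116, with no read in SiHa, and TRIM68 at 287 ± 13.9 in HCT116, with no read in SiHa. The third, from JOSD2 to CD33, held 10 kallikreins, of which 9 were higher in HCT116, and its median was 3.68, with 4 of 20 genes lacking any SiHa read. With windows of 10 genes the 3 highest were KLK5 to CD33, GNGT1 to PDK4 and STIM1 to OR51B5. KLK10 was at 1004 ± 412 in HCT116 and 16.9 ± 5.10 in SiHa, a log2 difference of 5.75 ± 0.33 (adjusted p = 4.14e-08), and KLK14 showed a log2 difference of -0.45 ± 0.31 (adjusted p = 0.211). Globin, kallikrein and keratin-associated genes have close copies, and reads may be shared within each family.

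Toward SiHa, the lowest window ran from CD14 to PCDHGB1, with a median of -2.12 and 13 of 20 genes higher in SiHa, 9 of them clustered protocadherins of the beta group. Its median was -0.41 over the members with a mean of at least 50, -1.20 with a pseudocount of 5 and -1.06 at pH 6.5, and it was not among the 3 lowest windows of 10 or of 40 genes. PCDHB14 was at 8.29 ± 3.14 in HCT116 and 657 ± 68.7 in SiHa, a log2 difference of -6.20 ± 0.28 (adjusted p = 5.45e-09), and PCDHB10 showed a log2 difference of -6.25 ± 0.53. The clustered protocadherins PCDHAC1 and PCDHAC2 of this window went the other way. They had no SiHa read and were at least 68.9-fold and 120-fold higher in HCT116. The window from TARS1 to CPLANE1 had a median of -1.83 and 16 of 20 genes higher in SiHa. It held NADK2, the mitochondrial NAD kinase, at 1034 ± 151 in HCT116 and 33753 ± 9461 in SiHa, SKP2, a ubiquitin ligase subunit of cell cycle entry, at 1031 ± 211 in HCT116 and 5602 ± 1259.6 in SiHa, and RANBP3L at 5.15 ± 8.47 in HCT116 and 9886 ± 3649.5 in SiHa. SPEF2, a sperm tail gene, was the one gene of that window called higher in HCT116, with a log2 difference of 3.58 ± 0.21. With windows of 40 genes this stretch widened to TTC23L to NNT, where 34 of 40 genes were higher in SiHa. The third window, from KCNS1 to NEURL2, had a median of -1.71 and 16 of 20 genes higher in SiHa. It held the antiproteases SLPI, at 147 ± 57.1 in HCT116 and 9028 ± 1893 in SiHa, and WFDC2, at 10.9 ± 4.56 in HCT116 and 1087 ± 119 in SiHa, beside the membrane anchor enzyme subunit PIGT at 1740.5 ± 312 in HCT116 and 9017 ± 823 in SiHa. With windows of 40 genes the highest stretch was HEY1 to GEM, where 38 of 40 genes were higher in HCT116, with a median of 1.69. Genes named within these windows were chosen after their values were seen. Copy number was not measured here.

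**Figure D5:**
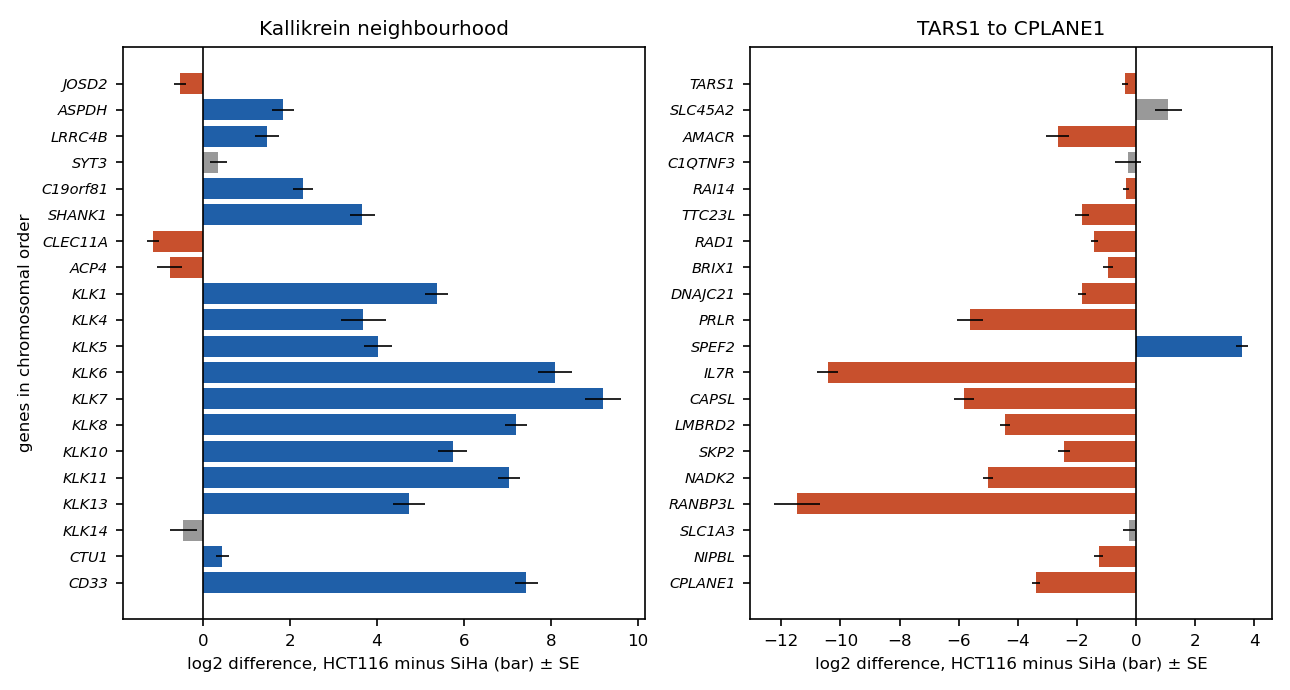
Log2 difference (HCT116 minus SiHa, bars) with its standard error for 20 genes in chromosomal order in the windows JOSD2 to CD33 (left) and TARS1 to CPLANE1 (right); blue and red bars passed the test, grey bars did not. Kallikreins from KLK1 to KLK13 are higher in HCT116, while 16 of the 20 genes on the right are higher in SiHa.

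The same lines were compared at pH 6.5 in separate libraries, 2 of HCT116 and 5 of SiHa. The 3 other libraries labelled HCT116 pH 6.5 were left out because SiHa transcripts had been found in them in an earlier analysis of these data. Of the libraries kept, HCT116 pH 6.5 replicate 1 held BASP1 at 18.3 and SPINK6 at 9.16, genes high in SiHa, and replicate 3 held no read of either. Of 19874 genes, 6536 (32.9%) were higher in HCT116 and 6373 (32.1%) in SiHa. With all 5 libraries as labelled the counts were 113 and 65. Of 14006 genes called at pH 7.4 and tested at pH 6.5, 9951 were called in the same direction (71.0% of those called at pH 7.4 and 80.5% of the 12367 called at pH 6.5), and 405 in the opposite direction. Of 8178 genes with at least a 2-fold difference at pH 7.4, 6719 were called the same way at pH 6.5 and 137 the opposite way.

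The line difference depended on pH for 5246 of 20927 genes (25.1%), by the limma interaction over 15 libraries. Of mitosis genes at pH 6.5, 4 of 66 were higher in HCT116 and 46 in SiHa. Of ribosomal protein genes at pH 6.5, 76 of 82 were higher in HCT116 and 1 in SiHa, and of mitochondrially encoded genes 13 of 13 were higher in HCT116 and 0 in SiHa. Nuclear-encoded respiratory chain genes at pH 6.5 were higher in HCT116 for 24 of 74 and in SiHa for 18, while at pH 7.4 most calls were toward SiHa. Of the genes with the widest differences, WNT16 moved by -4.52 ± 0.46 (adjusted p = 3.52e-06), from 8009 ± 362 in HCT116, with no read in SiHa, at pH 7.4 to 735 ± 383 in HCT116 and 1.08 ± 0.689 in SiHa at pH 6.5. IFI16 moved by 4.76 ± 0.83 (adjusted p = 0.00063), to 68.6 ± 76.1 in HCT116 and 5305 ± 1252 in SiHa at pH 6.5, and KRT17 by 3.24 ± 0.58 (adjusted p = 0.000842), to 32.01 ± 17.9 in HCT116 and 40119.9 ± 22552 in SiHa. In HCT116 replicates 1 and 3 at pH 6.5, IFI16 was at 122 and 14.8 and KRT17 at 44.6 and 19.4. Without replicate 1, IFI16 moved by 3.27 (adjusted p = 0.0077) and KRT17 by 2.66 (adjusted p = 0.014). The part of SiHa transcripts in these and the other moves was not tested. HNF4A, with 1.31 ± 0.74 at pH 6.5 (adjusted p = 0.15), and TNFSF10, with -0.44 ± 0.55 (adjusted p = 0.506), did not pass the test at pH 6.5.

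Some list members were nearly equal between the lines at pH 7.4. The 8 with the narrowest interval around 0 were SDHB, NDUFS3, UQCRC2, SMARCB1, CD276, HDAC6, CSTB and TALDO1. NDUFS3, a subunit of complex I, was at 2362 ± 188 in HCT116 and 2365 ± 163 in SiHa, with a 95% interval of -0.21 to 0.20. SMARCB1, a core subunit of the SWI/SNF remodeller, had an interval of -0.24 to 0.22, CD276 of -0.21 to 0.16 and SDHB of -0.15 to 0.24. The remaining 4 had intervals of -0.25 to 0.21 (UQCRC2), -0.17 to 0.23 (HDAC6), -0.19 to 0.19 (CSTB) and -0.15 to 0.24 (TALDO1).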

How the data were processed

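RNA sequencing libraries of HCT116 and SiHa were compared from 1 table of 38122 genes, of which 35466 IDs had a symbol in the gene name table used. The deposited values are a signal on a count scale: reads per gene divided by a size factor for each library, and over all 30 libraries the factor matched the DESeq2 median of ratios within 1e-06. Per the submitters' processing notes, the authors used the aligner STAR 2.6.1d, Trimmomatic 0.38, the genome build GRCh37 and, among other tools, DESeq2 1.22.2 and bcl2fastq 2.20. For the program that counted reads, its strand setting and the gene annotation, nothing is given in the sources used here. Without a known strand setting, reads of overlapping genes cannot be told apart. Since every value was a whole multiple of its library's smallest value, whole reads were recovered, and depths and floors are in those reads.

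The test was limma 3.58.1 with a mean-variance trend on log2 of the value plus 1, for genes whose mean reached 10 in the higher line, 2-sided, with Benjamini-Hochberg adjustment at 0.05. Counts were simulated for 19229 genes without a line difference, except for 200 genes changed 2- or 4-fold. On these counts the test recovered 71% of 2-fold and 92% of 4-fold changes, with 8 false calls. In the real comparison most tested genes were called, so these rates cannot be carried over to it. The line difference at pH 6.5 and its dependence on pH were fitted in the same way. Alternatives were other pseudocounts and filters, TMM scaling, edgeR 4.0.16, DESeq2 1.42.0, other sets of libraries, a block on the replicate number, and leaving out each library.

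Libraries were grouped by their labels. The members, the gene lists and the tests were chosen with earlier results of these data known. Genes named were the 15 widest differences each way with a mean of at least 100 and no overlap between the lines. Genes without a symbol, clone-named genes and a few others were passed over in that ranking. Also named were up to 6 called members per list with a mean of at least 50 and the cell type markers. Genes known from these lines and the 8 list members nearest to equal were added. Promoter sequences come from RefSeq on GRCh38.p14, and no coordinate was taken from the table. Some results on single genes and 1 list are not reported here.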

Additional observations from a re-analysis of the deposited data

Results flagged for a closer look

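For 6 of 146 HCT116 groups of 5 libraries with a mean of at least 10, 1 library stood apart by its gap to the others (Dixon's criterion, which chance meets in about 1 of 20 groups). In all 6 it was replicate 1, and it was the highest: ABCA1 at 79.4, ATP6V0D1 at 2166, CD14 at 26.5, CLDN3 at 2191, PLIN5 at 288 and USH1C at 1336. The SiHa group had 3 libraries and was not checked in this way.

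The line difference (HCT116 minus SiHa) at pH 6.5 was unlike that at pH 7.4 for 75 of the 226 named genes, by the limma interaction over 15 libraries with Benjamini-Hochberg adjustment at 0.05. It moved toward HCT116 in 58 and toward SiHa in 17. Over all genes, the same test called 5246 of 20927 (25.1%). Many named genes were chosen by the size of their difference at pH 7.4, in libraries that also enter this test. The counts for the named genes therefore follow in part from that choice and are not read as a result. Each value below is the log2 difference at pH 6.5 minus that at pH 7.4, and the groups of genes were made after the values were seen. Of interferon, antigen processing and inflammatory genes, the move was 9.84 for BST2, 8.80 for IFI44L, 7.43 for TNFSF10, 6.96 for SAMD9L, 6.58 for XAF1, 4.76 for IFI16, 4.25 for GBP1, 3.48 for IL7R, 3.15 for PSMB9 and 1.75 for CASP1. Of keratin, squamous and kallikrein genes, it was 6.53 for KRT5, 4.99 for KRT14, 4.65 for KRT16, 4.10 for KRT19, 3.24 for KRT17, 2.28 for KRT13, 2.17 for KRT20, 3.57 for PI3, 3.31 for KLK10, -2.63 for KLK6, 2.23 for SPINK6, -1.75 for TRIM29 and 2.82 for S100P. Of intestinal and junction genes, it was 4.42 for ASCL2, 3.40 for TSPAN8, 2.38 for ELF3, 2.31 for GATA5, 2.24 for EPCAM, -4.39 for HNF4A, -1.59 for CLDN4, -1.20 for CLDN7 and -1.71 for ANXA10. Of ligands, receptors and other signalling genes, it was 7.40 for STC1, 3.97 for HGF, 3.22 for GAS1, 3.25 for SFRP1, 2.42 for GDF15, 2.22 for IGF2, 1.98 for NOG, 1.95 for WNT5A, 1.49 for EFNA5, 0.94 for KITLG, -0.61 for SMAD4, -1.74 for TLE4, -1.74 for WNT3A, -1.54 for MSX2 and -4.52 for WNT16. Of matrix, adhesion and neural-type genes, it was 3.97 for LUM, 3.18 for SPARC, 2.91 for ITGB4, 2.90 for PCDHB10, 2.18 for COL5A1, 2.04 for ROBO1, 2.03 for PCDHB14, 1.90 for PCSK1N, 1.40 for INA and 0.89 for PCDH7. Of metabolic and transport genes, it was 3.95 for ABCA1, 3.80 for CA2, 2.26 for PPARGC1A, 1.58 for SMPD1, 1.57 for NNMT, 1.49 for NADK2, 1.07 for CYP1B1, 0.67 for NDUFS3 and -1.91 for ABCC2. Of the other genes named, it was -0.62 for CD276, -0.62 for CDKN2C, -1.15 for HMGA1, 4.74 for HMGA2, 1.65 for HRK, -1.39 for IRX2, 0.71 for MGMT, 4.51 for RANBP3L and -1.77 for RPL39L. HCT116 had 2 libraries at pH 6.5, so the HCT116 side of these moves rests on them. A move can also come from SiHa. For ABCA1, the mean went from 3036 at pH 7.4 to 550 at pH 6.5 in SiHa and from 33.1 to 54.8 in HCT116. HCT116 pH 6.5 replicate 1 stood above replicate 3 for some genes that were high in SiHa. BASP1 was at 18.3 against 0, SPINK6 at 9.16 against 0, NEFH at 17.2 against 3.42 and IFI16 at 122 against 14.8. Whether these reads came from SiHa was not tested. Without replicate 1, 45 of the 75 genes kept the call and direction and 30 lost the call (ANXA10, CASP1, CDKN2C, COL5A1, ELF3, GATA5, GDF15, HRK, IL7R, INA, IRX2, KRT13, KRT19, MGMT, MSX2, NDUFS3, NNMT, PCDH7, PCDHB10, PCSK1N, PPARGC1A, ROBO1, RPL39L, S100P, SMAD4, SMPD1, SPARC, SPINK6, TSPAN8 and WNT5A). Without replicate 3, 57 kept it and 18 lost it. No gene turned its direction in either case. SPINK6 moved by 0.56 (adjusted p = 0.422) without replicate 1.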

How the results depend on the processing

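Counts of genes called at pH 7.4 stayed within 1.5 times of those reported under the alternatives run. Leaving out each library gave 7020 to 7756 genes higher in HCT116 and 6674 to 7514 higher in SiHa. With all 5 SiHa libraries the counts were 7759 and 7731, and with SiHa replicate 1 as the one SiHa library, assumed to vary like HCT116, 6094 and 5614. The tests on recovered reads gave 7346 and 7432 (edgeR) and 7378 and 7317 (DESeq2), and scaling moved the median of all genes by at most 0.02 on the log2 scale. Genes on in HCT116 and at the floor in SiHa numbered 320 with a limit of 50 normalised counts and 88 with no read allowed, and those on in SiHa 74 with no read allowed. At pH 6.5, all 5 libraries labelled HCT116 gave 113 and 65 calls, and leaving out each library gave 5340 to 6525 and 5466 to 6357. The line difference depended on pH for 3655 to 6157 genes when each library was left out, and for 3865 with all 20 libraries as labelled, an alternative added after the data were seen.

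Replicate numbers were shared by 2 libraries of each line (1 and 5). Deviations of same-numbered libraries correlated at 0.284 for number 1, the highest of all pairs, and at 0.047 for number 5. Pairs with different numbers lay between -0.202 and 0.0868. The labels do not say that equal numbers share anything, so the main test used no pairing. Whether the libraries numbered 1 share something was not tested. With the replicate number as a block the counts were 6820 and 6342, and on all 10 libraries 7556 and 7474. Of 4294 values of the 215 called genes named, 4271 had the same call and direction and 21 lost the call. SPARC turned its direction with all 5 SiHa libraries (-0.33) and with the block on all 10 libraries (-1.54); 7 other genes (KRT14, KRT5, KRT8, PIK3CA, RB1, SLIT2 and TGFBR2) lost the call under at least 1 alternative. The cause was not tested. Of 1680 list counts, 1659 were within 1.5 times of the reported count. Of 120 window medians, 96 were within 0.25 of the reported median, 24 moved farther and 0 turned sign. Genes at 3 reads or fewer in a line are limited by depth, and their folds are bounds or counting intervals.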
